A study of Syntrichia ruralis with 8 samples.

Results

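Of the 768 cDNA clones on an array of Tortula ruralis (Syntrichia ruralis), a moss, 4 are described here because their annotation names a protein of photosynthesis or of import into the chloroplast. They are a chloroplast carbonic anhydrase precursor (USD-156), subunit III of photosystem I, annotated as the plastocyanin docking protein (USD-591), a chlorophyll a/b-binding protein of the light-harvesting antenna (USD-180) and chloroplast Toc125 (USD-548). The choice was made by the annotation of the scanner files, with earlier results of these data known. That annotation reads unknown for 559 clones and has another entry for 209, among them USD-440, whose entry is unknown protein. Tissue was leafy gametophytes, the haploid plants of the moss, collected and stored dry, then kept hydrated for 48 h before any treatment. Hydrated controls were frozen at that stage. Slow-dried plants then lost water for 24 h at 20 °C and a relative humidity of 66%. Rapid-dried rehydrated plants, called rehydrated below, were dried over silica gel and then rewetted for 2 h. Each of 8 2-colour arrays set poly(A) RNA of treated plants against poly(A) RNA of hydrated plants. There were 2 arrays for each treatment in total RNA and 2 for each in polysomal RNA, the fraction prepared as bound to ribosomes. The treated RNA was labelled with Cy3 on replicate 1 and with Cy5 on replicate 2. Plants from at least 3 clumps were pooled for each RNA preparation, so no value belongs to a single plant, and whether arrays shared a preparation of hydrated RNA is not given in the sources used here. The clones were taken from a subtracted library, so genes of the moss are not sampled evenly. No marker genes of moss tissues were fixed for the array, so the labelled tissue was not checked against markers.

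Photosystem I and the light-harvesting antenna sit in the thylakoid membrane, where chlorophyll bound to the antenna proteins collects light and passes its energy to the reaction centres. Subunit III of photosystem I helps plastocyanin, a soluble copper protein, to hand electrons to that photosystem, and carbonic anhydrase interconverts carbon dioxide and bicarbonate in the stroma. These proteins are in plants usually encoded in the nucleus, made in the cytosol and taken in through the Toc complex of the outer envelope, of which Toc125 is annotated as a part. Tortula ruralis is known for leaves that dry out almost completely and photosynthesise again soon after rewetting.

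A log2 ratio below is treated over hydrated after loess normalization. This sets the typical clone of similar mean brightness on an array at 0, so a negative value is lower than the bulk of such clones. Values called relative to the typical clone are on this scale. Fitted ratios of the 4 clones against hydrated tissue are also given on a control scale. On that scale each array was shifted so that 4 ribosomal protein clones (L17, S14, S16 and S3) have a mean of 0. The labels describe these clones as unaffected by the treatments. In total RNA the median clone stood above these controls by 1.53 (log2) after slow drying and by 1.18 after rehydration, and in polysomal RNA by 1.44 and 1.04. Fitted values carry the standard error of limma, which pools the spread over all 8 arrays, and p-values are two-sided. They were adjusted over all 768 clones (Benjamini-Hochberg), and a clone was called where the adjusted p was under 0.05. After normalization the controls did not all stay level. On the control scale S16 was called higher in slow-dried total RNA (0.61, adjusted p = 0.0488 in limma). S3 was called lower there in rehydrated total RNA (-0.73, adjusted p = 0.0191 in limma), and no other control was called against hydrated tissue. Before normalization the log2 ratios of S3 in that comparison were 0.030 and -0.29. The loess trend subtracted there was 2.09 and 1.49 for S3, and 1.12 and 0.48 for L17. Relative to the typical clone, the controls ran from -1.92 (S3) to -0.71 (L17) in rehydrated total RNA. With 2 arrays per comparison, the p-values measure the spread between the arrays hybridised here, once a dye effect common to all 8 arrays is fitted. That spread was not split between RNA preparation and hybridisation. In RNA from whole plants, fewer cells of a type and less RNA per cell cannot be told apart.

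The share of clones well above background in the hydrated channel ran from 71.2 to 94.9%, with the exception of replicate 1 of rehydrated total RNA (42.4%). Log2 ratios of the 2 arrays of a comparison correlated at 0.78 to 0.93 across clones, which are not independent replicates. One array, replicate 2 of rehydrated polysomal RNA, is titled as slow-dried but has a source name and a protocol of rapid drying with rehydration, and was used as the latter. For that reason its comparison is also given below without it.

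The 3 photosynthesis clones were among the brightest of the array in hydrated tissue, and Toc125 was among the dimmer ones. Hydrated signal of carbonic anhydrase ran from 5518 to 46501 scanner units over the 8 arrays, higher than or equal to that of 93.1 to 99.0% of clones on the same array. The corresponding shares were 98.7 to 100% for photosystem I subunit III and 98.8 to 99.9% for the chlorophyll a/b-binding protein. All 3 lay well above background in both channels of every array, and none of their spots carried a flag. Toc125 had hydrated signals from 171 to 2205 units, higher than or equal to those of 3.26 to 54.3% of clones, cleared the background in the hydrated channel of 1 array and in the treated channel of 5, and had a flag on 11 of its 24 spots.

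**Figure D1:**
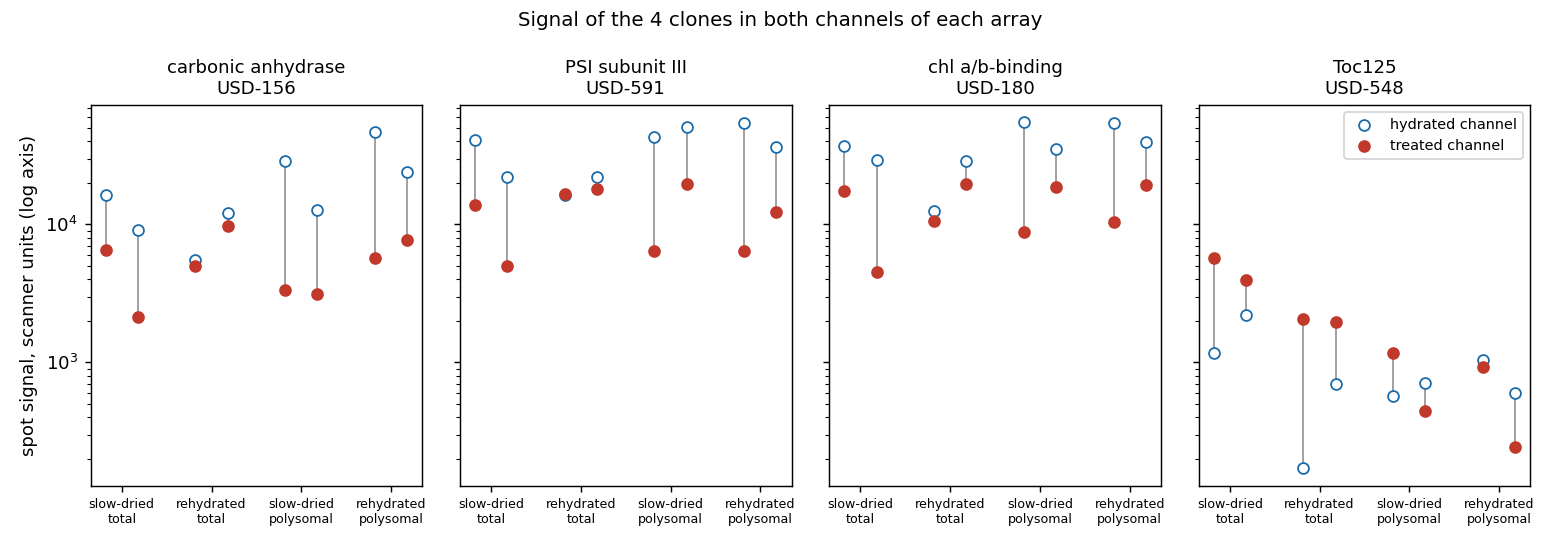
Spot signal in scanner units (log axis, mean of 3 spots) of each clone in the hydrated channel (open circles) and the treated channel (filled circles) of each array, with replicate 1 left and replicate 2 right in each comparison. The 3 photosynthesis clones were dimmer in the treated channel of every slow-dried and polysomal array and lay close to level in rehydrated total RNA, while Toc125 lay lower and was brighter in the treated channel of the 4 total RNA arrays.

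Carbonic anhydrase was the most strongly lowered clone of all 768 in polysomal RNA of both treatments, and ranked 4 from the lowest in slow-dried total RNA. In slow-dried total RNA its hydrated signals were 16326 and 9110 units in replicates 1 and 2 and its treated signals 6535 and 2145. The log2 ratios were -2.97 and -3.25, and on the control scale -1.73 and -1.52. Both arrays were thus low on both scales. In the fit it was 8.65-fold lower (log2 -3.11 ± 0.18 (SE, n = 2), 95% interval -3.55 to -2.68, adjusted p = 0.000181 in limma), and -1.63 on the control scale with an adjusted p of 1.12e-05.

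In slow-dried polysomal RNA the treated signals of carbonic anhydrase were 3329 and 3118 units against hydrated signals of 28600 and 12632. The log2 ratios of -4.14 and -3.58 were the lowest it reached in any comparison. Its spots were less alike on replicate 2, with an SD of 0.84 over 3 spots, than on replicate 1, with 0.033. The fitted ratio was -3.86 ± 0.18, which is 14.5-fold lower (adjusted p = 0.000223 in limma), and -2.45 on the control scale.

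After rapid drying and rehydration the fall of carbonic anhydrase was smaller and differed between the RNA fractions. In total RNA the treated signals were 4981 and 9757 units against hydrated signals of 5518 and 12067, a treated-to-hydrated ratio of 0.893 and 0.807 after subtraction of the local background and before any normalization. The log2 ratios were -1.70 and -1.29 relative to the typical clone, and -0.30 and -0.32 on the control scale. Both arrays were low on the first scale and close to the controls on the second. The fitted ratio of -1.49 ± 0.18 passed the test (adjusted p = 0.000944 in limma), and the ratio of -0.31 on the control scale did not (adjusted p = 0.318).

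In polysomal RNA of rehydrated plants carbonic anhydrase gave log2 ratios of -2.54 and -2.43, and -1.52 and -1.34 on the control scale, so the 2 arrays were nearly level. The fitted ratio was -2.48 ± 0.18, which is 5.58-fold lower (adjusted p = 0.00204 in limma), and -1.43 on the control scale (adjusted p = 0.000117). It was -2.54 without replicate 1 (adjusted p = 0.0963) and -2.42 without replicate 2, the array with the conflicting title (adjusted p = 0.0838). With either array left out, limma called 0 of all 768 clones in that comparison, with 180 and 185 at an unadjusted p under 0.05.

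Photosystem I subunit III followed nearly the same course. In slow-dried total RNA its hydrated signals were 40744 and 22155 units and its treated signals 13760 and 5006, with log2 ratios of -2.70 and -3.30. Both arrays were low, and on the control scale they lay closer together, at -1.46 and -1.57. It was 8.00-fold lower in the fit (log2 -3.00 ± 0.21, adjusted p = 0.000205 in limma), and -1.51 on the control scale (adjusted p = 4.66e-05).

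In slow-dried polysomal RNA the log2 ratios of subunit III were -3.53 and -2.96, and -2.19 and -1.48 on the control scale. Replicate 1 was the lower array on both scales. The fitted ratio was -3.25 ± 0.21, which is 9.49-fold lower (adjusted p = 0.000492 in limma), and -1.84 on the control scale. In polysomal RNA of rehydrated plants the ratios were -2.45 and -2.26, with a fitted 5.13-fold fall (log2 -2.36 ± 0.21, adjusted p = 0.00302), and -1.31 on the control scale (adjusted p = 0.000451). Both polysomal falls thus stood on both scales, but the second was not called with either of its arrays left out, at -2.23 without replicate 1 and -2.48 without replicate 2 (adjusted p = 0.127 and 0.0838 in limma).

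In total RNA of rehydrated plants, subunit III had a treated signal of 16521 against a hydrated one of 16421 units on replicate 1, and of 18128 against 21993 on replicate 2. The log2 ratios were -0.92 and -1.09 relative to the typical clone and 0.48 and -0.12 on the control scale. The 2 arrays therefore lay on opposite sides of the mean of the control clones. The fitted ratio of -1.01 ± 0.21 passed relative to the typical clone (adjusted p = 0.00744 in limma) and was at 0.18 on the control scale (adjusted p = 0.584). Without replicate 2 the first value was -0.90 with an adjusted p of 0.0613.

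Relative to the typical clone the chlorophyll a/b-binding protein was lower in all 4 comparisons too, with more spread between arrays in slow-dried total RNA. In slow-dried total RNA its hydrated signals were 36664 and 29288 units and its treated signals 17479 and 4486, so the log2 ratios were -2.15 and -4.03. Replicate 2 was far lower than replicate 1, and the gap of 1.88 between them was the widest of any photosynthesis clone in any comparison. The fitted ratio was -3.09 ± 0.39, which is 8.52-fold lower (adjusted p = 0.000825 in limma), and -1.60 on the control scale (adjusted p = 5.51e-05). It was -4.16 without replicate 1 and -2.02 without replicate 2, and was called in both cases.

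In slow-dried polysomal RNA the ratios of the chlorophyll a/b-binding protein were -3.16 and -2.70, with a fitted 7.63-fold fall (log2 -2.93 ± 0.39, adjusted p = 0.00186 in limma), and -1.52 on the control scale. In rehydrated polysomal RNA they were -1.70 and -1.68, and the fitted ratio was -1.69 ± 0.39 (adjusted p = 0.0197). Here the 2 arrays were nearly equal, but on the control scale the ratio of -0.64 did not pass (adjusted p = 0.0644). Nor did the first value pass without replicate 1 (-1.50, adjusted p = 0.251) or without replicate 2 (-1.88, adjusted p = 0.167). At the scanner's upper limit of 65535 units lay the median pixel of 4 of its hydrated spots, 2 of them on replicate 1 of slow-dried and 2 on replicate 1 of rehydrated polysomal RNA, and of 1 hydrated spot of subunit III on the latter array. The part of this limit in these ratios was not tested.

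In rehydrated total RNA the chlorophyll a/b-binding protein gave log2 ratios of -1.41 and -1.10, and -0.0080 and -0.13 on the control scale. Both arrays lay close to the controls. The fitted ratio of -1.25 ± 0.39 had an adjusted p of 0.0330 in limma, and the value of -0.068 on the control scale one of 0.855. The call was lost without replicate 1 (-0.86, adjusted p = 0.257), without replicate 2 (-1.64, adjusted p = 0.0507) and without either array of rehydrated polysomal RNA (-1.25, adjusted p = 0.0578 each).

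**Figure D2:**
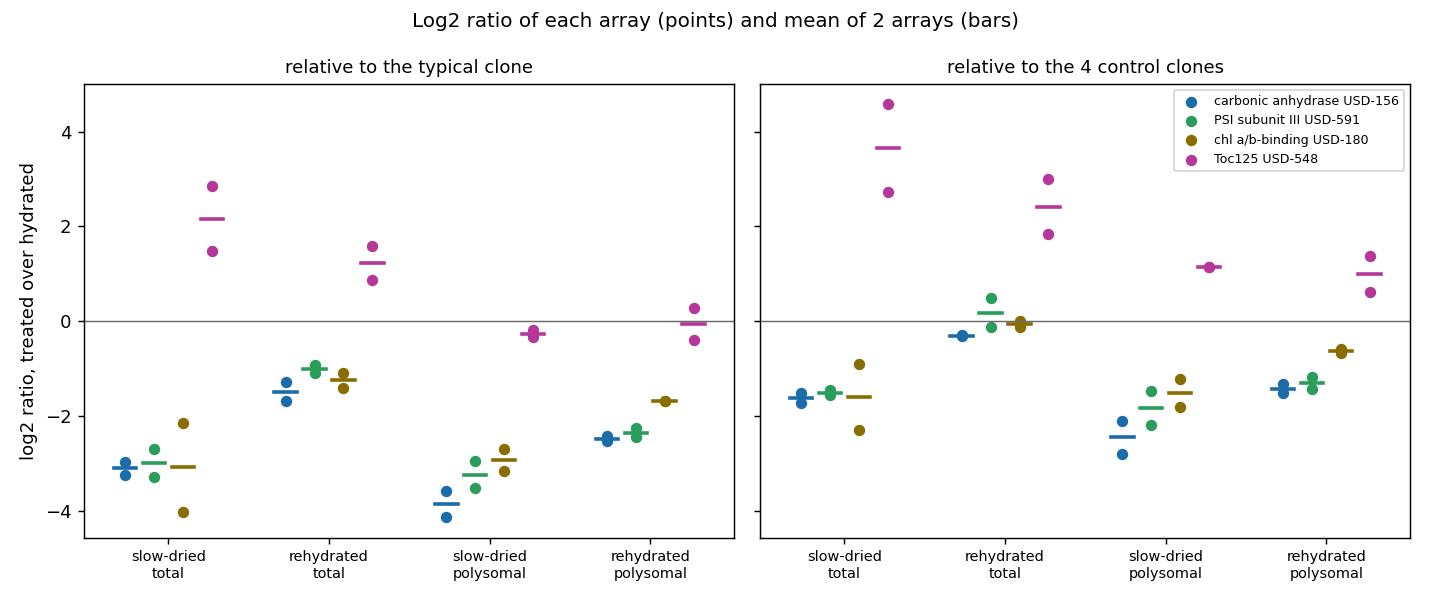
Log2 ratio of treated over hydrated signal of each array (points) and the mean of 2 arrays (bars) for the 4 clones in the 4 comparisons, relative to the typical clone (left) and to the 4 control clones (right). The photosynthesis clones lie below 0 on every array in the left panel and around 0 in rehydrated total RNA in the right panel.

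Counted by spot, all 24 spots of each photosynthesis clone had a log2 ratio below 0. In background-subtracted signal before normalization, 15 of the 18 spots of these clones in rehydrated total RNA were dimmer in the treated channel, as were all 54 in the other comparisons. Relative to the typical clone 3 of the 4 clones were called lower in each comparison, where the share of all clones called lower was 30.6% (slow-dried) and 26.8% (rehydrated) for total RNA, and 24.5% and 17.6% for polysomal RNA. On the control scale falls were rare. In slow-dried total RNA 3 of the 4 clones were lower there, against 3.26% of all clones, as were 3 in slow-dried polysomal RNA against 2.6%, 2 in rehydrated polysomal RNA against 1.3%, and 0 in rehydrated total RNA against 1.56%. In that last comparison 0 of the 4 clones were lower at an unadjusted p under 0.05 in limma.

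**Figure D3:**
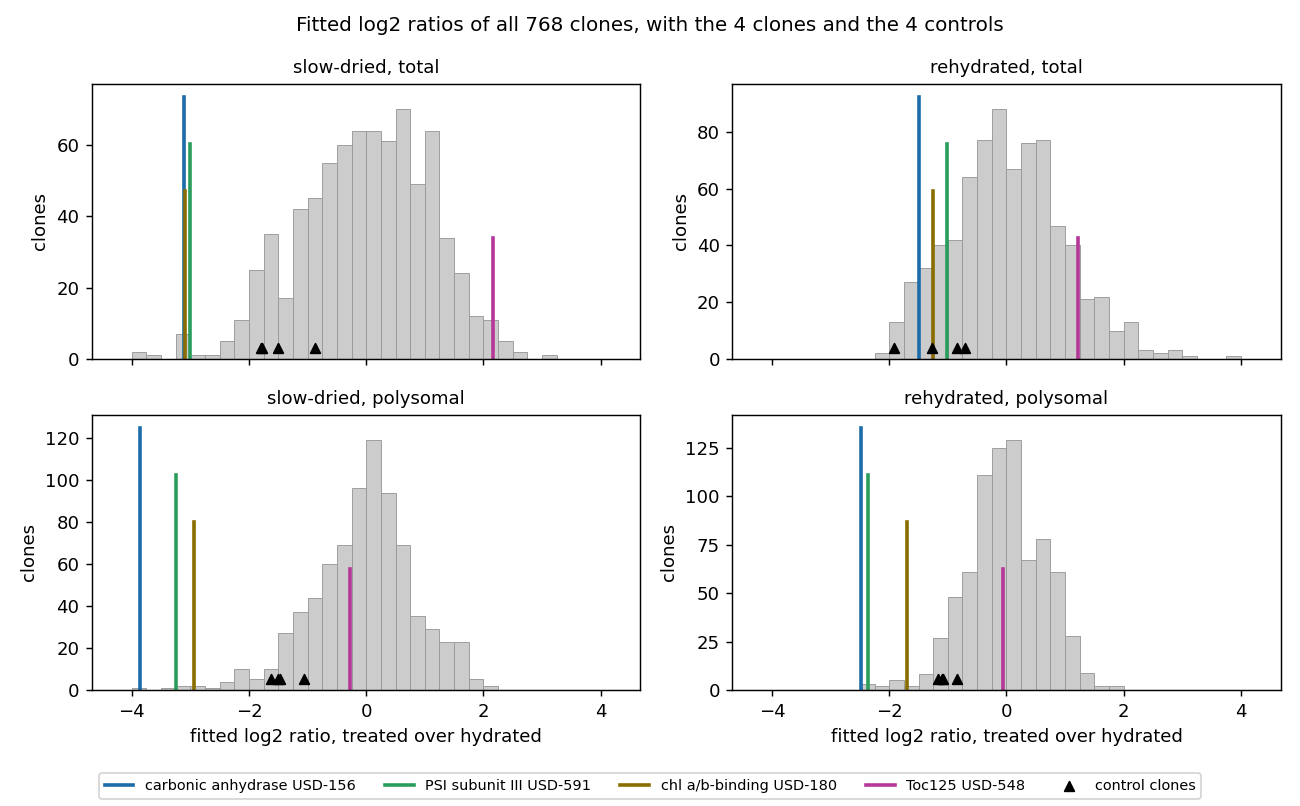
Number of clones (vertical axis) by fitted log2 ratio of treated over hydrated signal (horizontal axis, bins of equal width) in the 4 comparisons, with coloured lines, whose height has no meaning, at the 4 clones and triangles at the 4 control clones. The photosynthesis clones stand at the low end in slow-dried tissue and in polysomal RNA, below the controls, and among the controls in rehydrated total RNA.

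Toc125 behaved unlike the photosynthesis clones, being higher than in hydrated tissue in total RNA and not called in polysomal RNA relative to the typical clone. In slow-dried total RNA its treated signals were 5748 and 3985 units against hydrated signals of 1164 and 2205, and neither hydrated signal was well above background. The log2 ratios were 1.48 and 2.84, and 2.72 and 4.57 on the control scale. Both arrays were high, with replicate 2 the higher, but the 3 spots of an array did not match, since their treated signals on replicate 1 were 12542, 927 and 3776 units.

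Because the hydrated level was not well above background, the fold of Toc125 in slow-dried total RNA was taken against a floor. It sets the mean treated level against the mean, over arrays, of the higher of the clone's own hydrated level and the lowest level among clones well above background, after loess and scaling of the channels. The dyes were exchanged between the 2 arrays. Against this floor the fold was 4.47, which is no lower limit, since the spread between arrays is not in it. Toc125 had a fitted log2 ratio of 2.16 ± 0.34 (95% interval 1.34 to 2.98, adjusted p = 0.00184 in limma), and 3.65 on the control scale (adjusted p = 5.30e-09). This was 1 of 4 clones called higher, against 32.4% of all clones relative to the typical clone and 77.7% on the control scale. Without background correction the ratio was 0.27 (adjusted p = 0.296), so the call rests on that correction.

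In rehydrated total RNA Toc125 had treated signals of 2068 and 1974 units against hydrated signals of 171 and 696, again not well above background on either array. The log2 ratios were 1.59 and 0.86, but on replicate 2 the 3 spots gave -1.73, 2.02 and 2.28, so 1 of them went the other way. Against the same floor the fold was 1.80, which is no lower limit, since the spread between arrays is not in it. Toc125 had a fitted ratio of 1.22 ± 0.34 (95% interval 0.40 to 2.04, adjusted p = 0.0208 in limma), in a comparison in which 29.4% of all clones were called higher. It was not called without replicate 1 (0.54, adjusted p = 0.289), with median centring (0.89, adjusted p = 0.0745) or without flagged spots (1.22, adjusted p = 0.0953).

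In polysomal RNA Toc125 was near the level of the background in both channels. In slow-dried tissue the treated signals were 1163 and 441 units and the hydrated signals 573 and 715, and both channels were well above background on replicate 1 and neither on replicate 2. The log2 ratios of -0.20 and -0.35 gave a fitted -0.27 ± 0.34 (95% interval -1.09 to 0.55, adjusted p = 0.552 in limma). In rehydrated tissue neither channel was well above background on either array, so no fold is given, and the ratios were -0.40 and 0.27. Relative to the typical clone 0 of the 4 clones were called higher in either polysomal comparison, also at an unadjusted p under 0.05 in limma, against 21% and 19% of all clones. On the control scale Toc125 was called higher in both, at 1.14 (adjusted p = 0.00503) and 0.99 (adjusted p = 0.0153), where 81.6% and 75.5% of all clones were called higher. On that scale 72.5% of clones, Toc125 among them at 2.41, were higher in rehydrated total RNA.

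Slow-dried and rehydrated plants were then set against each other by the difference of their log2 ratios. In total RNA carbonic anhydrase was lower in slow-dried plants by a log2 difference of -1.62 ± 0.26 (95% interval -2.24 to -1.01, adjusted p = 0.0103 in limma) and photosystem I subunit III by -1.99 ± 0.30 (-2.72 to -1.27, adjusted p = 0.00983). These 2 of 4 clones compare with 11.3% of all clones called lower. Against the controls the differences were -1.32 and -1.69 (adjusted p = 0.0308 and 0.0112). Neither clone was called without within-array normalization (-1.48 and -1.72, adjusted p = 0.625 and 0.441), where 3 of all 768 clones were, nor with the authors' ratios (-1.04 and -1.28, adjusted p = 0.157 each), where limma called 0 of 768, with 152 at an unadjusted p under 0.05. Both ratios of each clone in slow-dried plants lay below both in rehydrated plants on either scale.

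For the chlorophyll a/b-binding protein the difference of -1.84 ± 0.56 did not pass (adjusted p = 0.0689 in limma), but the value of -1.54 on the control scale did (adjusted p = 0.0277), among 4.3% of all clones called lower there. Without replicate 1 of slow-dried total RNA the first difference was -2.91 (adjusted p = 0.00877). The difference of Toc125, whose hydrated signal was not well above background on any total RNA array, did not pass (adjusted p = 0.203). None of the 4 clones was called higher in any of the differences between treatments or fractions, on either scale. Of all clones, relative to the typical clone, 6.38% and 0.26% were higher for the treatments in total and polysomal RNA and 13.8% and 14.5% for the fractions in slow-dried and rehydrated plants, and on the control scale 7.29%, 0%, 9.24% and 5.6%. At an unadjusted p under 0.05 limma had 1 of the 4 higher, Toc125 for the treatments in total RNA on the control scale (1.24).

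In polysomal RNA the difference between the treatments was called for carbonic anhydrase, at -1.38 ± 0.26 (adjusted p = 0.0395 in limma), which makes 1 of 4 clones against 3.65% of all clones called lower. Against the controls it was -1.02 (adjusted p = 0.147), where limma called 0 of 768 clones, with 37 lower and 135 higher at an unadjusted p under 0.05. It was not called with any polysomal array left out, at -1.62 to -1.14 with adjusted p between 0.169 and 0.400. The differences of subunit III (-0.89, 95% interval -1.61 to -0.16, adjusted p = 0.152) and the chlorophyll a/b-binding protein (-1.24, -2.58 to 0.098, adjusted p = 0.239) did not pass, nor did that of Toc125 near background (adjusted p = 0.815).

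The polysomal and total RNA fractions, which came from separate samples, were compared by the same difference of log2 ratios within each treatment. Total RNA was on slides 2, 3, 5 and 6 and polysomal RNA on slides 73, 85, 93 and 105. A difference between fractions thus cannot be told apart from one between these sets of slides. In rehydrated plants the log2 ratio against hydrated tissue was called lower in polysomal than in total RNA for 2 of 4 clones, against 15.5% of all clones. The differences were -0.99 ± 0.26 for carbonic anhydrase (adjusted p = 0.0311 in limma) and -1.35 ± 0.30 for subunit III (adjusted p = 0.0200). Against the controls they were -1.12 and -1.48 (adjusted p = 0.0468 and 0.0143). With median centring of each array the differences of these clones were -0.67 and -0.65 and not called (adjusted p = 0.0830 and 0.0767), nor were they with the authors' ratios (-1.15 and -1.20, adjusted p = 0.0883 and 0.0977). Neither was called without replicate 1 of total RNA or without either polysomal array, at -1.13 to -0.93 for carbonic anhydrase (adjusted p up to 0.222) and -1.48 to -1.22 for subunit III (adjusted p up to 0.154). Leaving out replicate 2 of total RNA also ended the call for carbonic anhydrase (-0.85, adjusted p = 0.101). The chlorophyll a/b-binding protein differed by -0.44 (95% interval -1.78 to 0.90, adjusted p = 0.592).

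In slow-dried plants the test called a difference between the fractions for Toc125, 1 of 4 clones against 15.5% of all clones (adjusted p = 0.0142 in limma), and also on the control scale, where 9.77% were lower. The fitted difference of -2.43 is no measured size, because the hydrated channel was not well above background on either total RNA array and neither channel was on replicate 2 of polysomal RNA. Without background correction this difference was -0.36 (adjusted p = 0.401). It was -1.71 without replicate 2 of total RNA (adjusted p = 0.0674), -2.72 without replicate 1 and -2.14 without replicate 2 of polysomal RNA (adjusted p = 0.0525 and 0.104). For carbonic anhydrase the difference was -0.75 (95% interval -1.36 to -0.13, adjusted p = 0.0697), for subunit III -0.25 (-0.97 to 0.48, adjusted p = 0.561) and for the chlorophyll a/b-binding protein 0.16 (-1.18 to 1.50, adjusted p = 0.854). In rehydrated plants the fitted difference of Toc125, which has the same limit, did not pass (adjusted p = 0.0906) and passed on the control scale (adjusted p = 0.0492), where 3 of the 4 clones were called lower against 13.2% of all clones.

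The order of the 4 comparisons, from the lowest ratio up, was the same for carbonic anhydrase and subunit III. Slow-dried polysomal RNA came first, then slow-dried total, rehydrated polysomal and rehydrated total RNA. The difference within the first pair of neighbours did not pass the test for either clone, that within the last pair passed for both, and the middle pair, which differs in treatment and in fraction, was not tested. For the chlorophyll a/b-binding protein slow-dried total RNA came first, followed by slow-dried polysomal, rehydrated polysomal and rehydrated total RNA, and no difference between its neighbours passed the test. The ratios of Toc125 are given no order, since its hydrated channel cleared the background on 1 array alone.

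In slow-dried total RNA the fitted ratios of the 3 photosynthesis clones lay close, between -3.11 and -3.00. By array they did not, since carbonic anhydrase minus the chlorophyll a/b-binding protein was -0.82 on replicate 1 and 0.78 on replicate 2. In polysomal RNA carbonic anhydrase lay below the chlorophyll a/b-binding protein on each of the 4 arrays. On replicate 1 of both comparisons 2 of the 3 hydrated spots of the latter clone had their median pixel at the scanner's limit. On replicate 2, where none did, the log2 ratio of carbonic anhydrase minus that of the chlorophyll a/b-binding protein was -0.88 in slow-dried and -0.74 in rehydrated tissue. Over the 8 arrays the clone nearest to carbonic anhydrase of the 767 others was subunit III, and the reverse held too, with a root mean square difference of 0.43 in log2 ratio. The median of that difference over all clones was 2.98 from carbonic anhydrase and 2.68 from subunit III. These distances are descriptions over arrays that share the same normalization.

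The next nearest to carbonic anhydrase were USD-275, annotated as a 16kDa membrane protein (0.46), and USD-188 (0.68), which has no annotation. For subunit III they were USD-390 (0.46), with no annotation, and USD-275 (0.49). Nearest to the chlorophyll a/b-binding protein were USD-188 (0.27) and USD-390 (0.28), followed by subunit III (0.52). USD-188 had fitted log2 ratios of -2.90, -1.52, -3.09 and -1.77 in the order slow-dried total, rehydrated total, slow-dried polysomal and rehydrated polysomal RNA. Toc125 was nearest to USD-350 (0.41), USD-271 (0.46) and USD-440 (0.47), none of which carries a named protein, and among the 767 clones ranked by distance from each photosynthesis clone it came 676th for carbonic anhydrase, 680th for subunit III and 706th for the chlorophyll a/b-binding protein.

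A search of the annotation for other proteins of the chloroplast, of photoprotection and of photorespiration found 10 more clones. Photorespiration is the salvage pathway that runs through peroxisomes and mitochondria. Thioredoxin H was found by the search word thioredoxin, and its annotation names neither the chloroplast nor photorespiration. In slow-dried total RNA 5 of the 10 rose, 2 fell and 3 did not pass, where 32.4% of all clones were higher and 30.6% lower, and the median log2 ratio was 0.29 against 0.05 for all clones. Catalase, which breaks down hydrogen peroxide in peroxisomes, stood at 2.14. The early light-inducible proteins ELIPb and ELIPA, relatives of the antenna proteins that are made under light stress, were at 2.02 and 1.46. Glycolate oxidase, a photorespiratory enzyme, was 2.54-fold higher in the fit, and its hydrated channel was not well above background on either array. Thioredoxin H (-2.06) and GLU2, a ferredoxin-dependent glutamate synthase that assimilates ammonium (-1.96), fell, and all 6 passed the test of limma. On the control scale thioredoxin H was at -0.58 and GLU2 at -0.48, and neither was called. The 2 arrays lay far apart for ELIPb (1.09 and 2.95) and for thioredoxin H (-1.26 and -2.87). ELIPb and ELIPA each cleared the background in the hydrated channel of 1 array, and thioredoxin H in the treated channel of 1. The 3 photosynthesis clones, at a median of -3.09, were lower than every clone of this list.

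In rehydrated total RNA 2 of the 10 rose and 2 fell, where 29.4% of all clones were higher and 26.8% lower, with a median of -0.11 against -0.01. GLU2, at -2.25, was the lowest of all 768 clones and lay below carbonic anhydrase, with its treated channel well above background on 1 array. Catalase was 4.63-fold higher in the fit, and its hydrated channel was not well above background on either array. The stay-green protein, which takes part in chlorophyll breakdown, was at -0.72 and ELIPA at 0.61. Each of these cleared the background in the hydrated channel of 1 array. On the control scale GLU2 was called lower (-1.06), and the stay-green protein was at 0.46 and not called. Stromal ascorbate peroxidase, which clears peroxide with ascorbate in the chloroplast (-0.43), and the gamma-glutamylcysteine synthase of glutathione synthesis (0.30) did not pass.

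In polysomal RNA of slow-dried plants 3 rose and 2 fell, close to the 21% higher and 24.5% lower of all clones, with a median of 0.10 against 0.03. Glycolate oxidase (1.60), catalase (1.21) and ELIPA (0.56) rose, ascorbate peroxidase (-1.42) and the stay-green protein (-0.56) fell, and thioredoxin H (-0.76) did not pass. These 2 falls did not hold on the control scale. Ascorbate peroxidase was at -0.014 there, and the stay-green protein was called higher (0.85, adjusted p = 0.0110 in limma). In rehydrated polysomal RNA 2 rose, glycolate oxidase (1.16) and catalase (0.69), and 1 fell, ascorbate peroxidase (-1.79), against 19% and 17.6% of all clones, with a median of -0.13 against -0.02. ELIPb (-0.52), GLU2 (-0.28) and the gamma-glutamylcysteine synthase (-0.22) did not pass there. Ascorbate peroxidase was called lower on the control scale as well (-0.74). On the control scale 8, 8, 9 and 8 of the 10 clones were higher in slow-dried total, rehydrated total, slow-dried polysomal and rehydrated polysomal RNA, and 0, 1, 0 and 1 lower, which is close to the 77.7%, 72.5%, 81.6% and 75.5% of all clones higher on that scale.

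**Figure D4:**
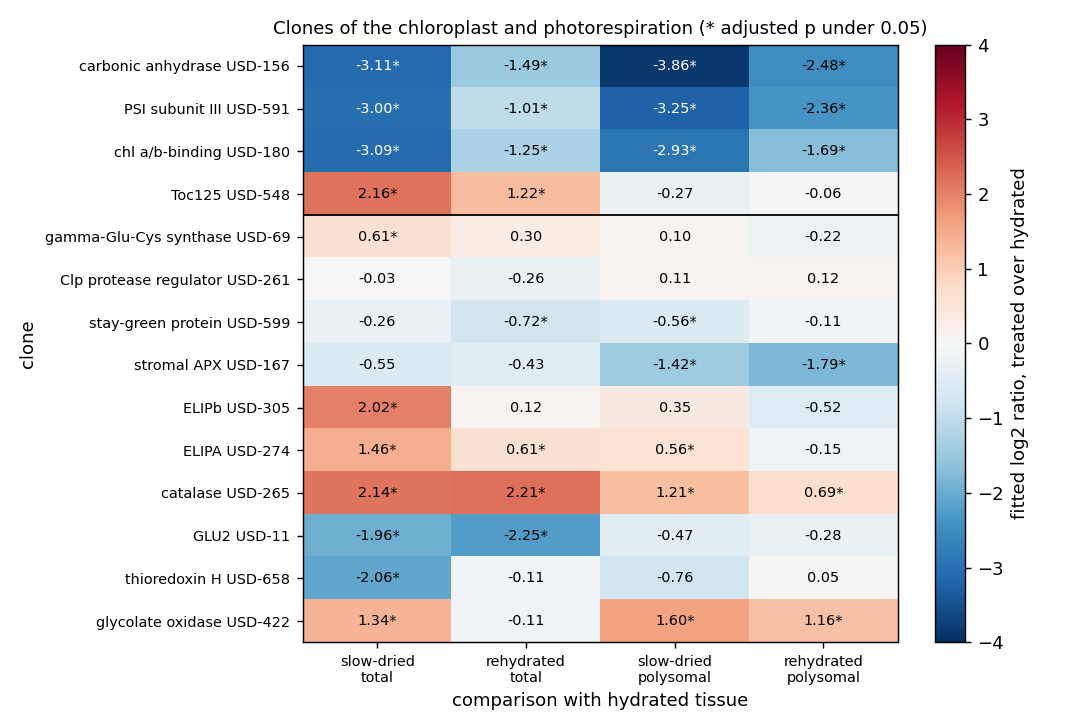
Fitted log2 ratio of treated over hydrated signal (colour and printed value, relative to the typical clone) in the 4 comparisons. The 4 clones stand above the line and the 10 other clones found by the annotation search, thioredoxin H among them, below it. An asterisk marks an adjusted p of limma under 0.05. The photosynthesis clones are low in all 4 columns, and of the 10 others catalase is high in all 4.

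The authors' deposited ratios, which are divided so that the control clones have a median of 1, gave the same picture for the falls in slow-dried tissue. For carbonic anhydrase they were 0.362 and 0.423 in slow-dried total RNA, 0.159 and 0.173 in slow-dried polysomal RNA, 0.315 and 0.418 in rehydrated polysomal RNA and 0.795 and 0.815 in rehydrated total RNA. All of these lie below 1, the last pair closest to it. In rehydrated total RNA the authors' ratios were 0.905 and 0.789 for subunit III and 0.756 and 0.727 for the chlorophyll a/b-binding protein. For Toc125 they ran from 0.837 to 122, the latter on the array where its hydrated signal was 171 units.

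**Figure D5:**
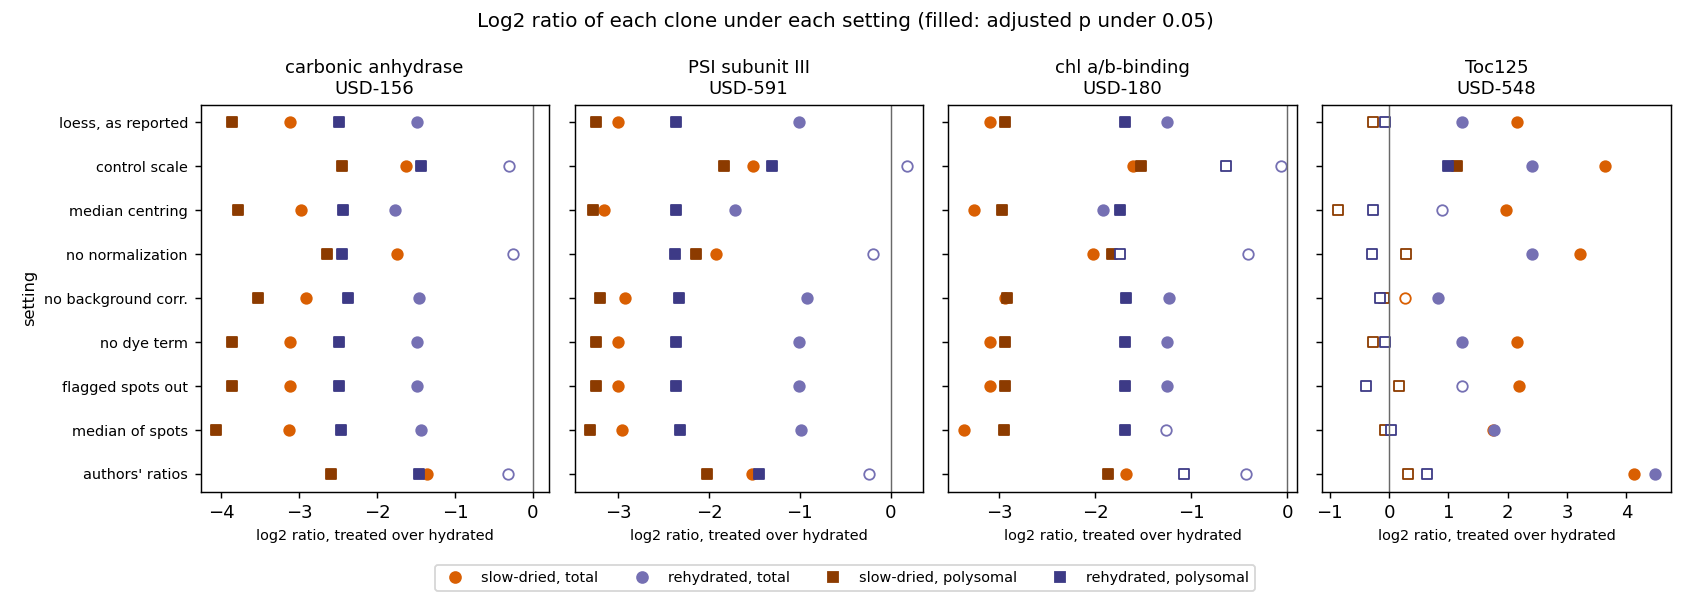
Log2 ratio of treated over hydrated signal (horizontal axis) of each clone under 9 settings of the processing (vertical axis) in the 4 comparisons, filled where the adjusted p of limma was under 0.05. The slow-dried values of the 3 photosynthesis clones stay below 0 and filled under each setting shown, the rehydrated total RNA values come near 0 and open on the control scale, without normalization and in the authors' ratios, and those of Toc125 spread most.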

How the data were processed

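Signals of 768 clones, 3 spots each, were read from the deposited scanner files of 8 2-colour arrays, which per the file headers give the intensity of each spot and of its local background in scanner units, with no normalization. A deposited spot flag of another kind runs from 0 to 3, and its meaning is not given in the sources used here. The authors also deposited 1 ratio per clone and array, used as an alternative, whose values show that the control clones have a median of 1 on each array. Neither the scanner nor its software is named there.

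Each channel was background-corrected by normexp (offset 50, spot mean less local background median). Treated over hydrated log2 ratios were normalized by global loess (span 0.3, 4 iterations), and spots were averaged. One model over 8 arrays, with 4 comparison coefficients and a dye term, was fitted in R 4.3.3 with limma 3.58.1 and moderated by eBayes (3 residual and 6.41 total degrees of freedom), and contrasts of coefficients gave the 4 differences. A clone counted as well above background where its signal exceeded the background by 2 background SD. The procedure was tested on simulated data. Plots used matplotlib 3.10.9.

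Array data have no counting depth, and the number of arrays limits the precision. Replicate numbers follow the dye orientation and pair no samples across groups. The named clones are the 4 chosen by annotation, the 4 control clones, the 10 other clones found by a search of the annotation (values for up to 6 per comparison, those with the largest ratio in size) and the 3 nearest clones of each. The clones and lists were chosen with earlier results of these data known. The design text names other ribosomal proteins for the controls than the labels and files do, so which genes some control clones carry is not settled. Alternatives covered the scale, normalization, background, dye term, flags, combining of spots, dim clones, RNA fractions and single arrays. Loess within printing blocks was not run, since the files give no block column.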

Additional observations from a re-analysis of the deposited data

Results flagged for a closer look

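Differences between treatments or between RNA fractions that passed limma's test of the difference itself (adjusted p under 0.05) occurred for 3 of the 4 clones. Between slow-dried and rehydrated plants they were -1.62 for carbonic anhydrase (USD-156) and -1.99 for photosystem I subunit III (USD-591) in total RNA, and -1.38 for carbonic anhydrase in polysomal RNA, each as a log2 difference with slow-dried plants lower. Between polysomal and total RNA they were -2.43 for Toc125 (USD-548) in slow-dried plants, and -0.99 for carbonic anhydrase and -1.35 for subunit III in rehydrated plants. In each the ratio against hydrated tissue was the lower one in polysomal RNA. The value of Toc125 is no measured size, since its hydrated signal was not well above background in slow-dried total RNA, and it was -0.36 (adjusted p = 0.401 in limma) without background correction. Of these, the differences in total RNA between treatments were also called on the control scale, as were all those between fractions, and the polysomal difference of carbonic anhydrase was not.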

How the results depend on the processing

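The falls of the 3 photosynthesis clones in slow-dried tissue were called under all 19 alternatives, in total and in polysomal RNA, with log2 ratios from -4.16 to -1.35. No paired analysis was possible because the replicate numbers were assigned here by dye orientation and pair no samples. Loess within printing blocks was not run, since the files give no block column. With 2 arrays per comparison a comparison left with 1 array borrows its spread from the other groups. Using the mean of the local background, an alternative chosen after seeing the data, changed no call of the 4 clones. The cause was not tested for any of the values below.

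On the control scale limma called 647 clones in slow-dried and 590 in rehydrated polysomal RNA, 89 and 0 (172 at an unadjusted p under 0.05) for the difference of treatments in total and polysomal RNA, and 146 and 144 for the difference of fractions in slow-dried and rehydrated plants. In rehydrated total RNA 0 of the 4 clones were then lower, with carbonic anhydrase at -0.31, subunit III at 0.18 and the chlorophyll a/b-binding protein at -0.068. In polysomal RNA Toc125 was then higher, at 1.14 and 0.99, as 1 clone each, the chlorophyll a/b-binding protein was at -0.64 after rehydration, and for the difference of treatments 0 clones were lower and Toc125 was at 0.15.

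Without within-array normalization the counts were 4 in rehydrated polysomal RNA, 3 and 0 (177 unadjusted) for the treatments in total and polysomal RNA and 17 for the fractions in slow-dried plants. Of the 4 clones 0 were lower in rehydrated total RNA (-0.26, -0.20 and -0.40, in the same order), where 449 of all 768 clones were higher and 0 lower, and 0 in both differences of treatments, where 3 and 0 of all clones were lower. Toc125 was at 0.28 in slow-dried polysomal RNA, the chlorophyll a/b-binding protein at -1.74 in rehydrated polysomal RNA, and in the polysomal difference of treatments subunit III was at 0.23 and Toc125 at 0.56.

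With the authors' ratios limma called 0 clones (152 unadjusted) and 1 clone for the treatments in total and polysomal RNA, and 25 and 0 (223 unadjusted) for the fractions in slow-dried and rehydrated plants. Of the 4 clones 0 were lower in any difference or in rehydrated total RNA (-0.31, -0.24 and -0.43), where 536 of all 768 clones were higher and 1 lower. Toc125 was at 0.32 in slow-dried and 0.64 in rehydrated polysomal RNA and at -0.36 for the treatments in total RNA. The chlorophyll a/b-binding protein was at -1.08 in rehydrated polysomal RNA and at -0.19 for the fractions in slow-dried plants.

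Without background correction Toc125 was at 0.27 in slow-dried total RNA, where 0 clones were then higher, 0 were lower for the fractions in slow-dried plants, and Toc125 was at -0.55 and 0.060 for the treatments in total and polysomal RNA. With median centring Toc125 was at 0.89 in rehydrated total RNA (0 clones higher), and for the fractions after rehydration 0 were lower and the chlorophyll a/b-binding protein was at 0.19. Without flagged spots Toc125 was at 1.22 in rehydrated total RNA (0 higher), 0.16 in slow-dried polysomal RNA and 0.55 for the polysomal difference of treatments, and 0 clones were lower in that difference, where carbonic anhydrase had an adjusted p of 0.0546, and in the fractions of slow-dried plants. With the median of spots the chlorophyll a/b-binding protein was at -1.26 and not called in rehydrated total RNA, Toc125 at 0.035 in rehydrated polysomal RNA and at -0.010 for the treatments in total RNA, and 2 clones were lower for the fractions in slow-dried plants. With 1 RNA fraction fitted alone the counts were 528 and 480 in the polysomal comparisons and 59 and 340 for the treatments in total and polysomal RNA, and 3 clones were lower in the last.

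Leaving out 1 array at a time, limma called 129 to 386 clones in slow-dried and 0 to 315 in rehydrated polysomal RNA, 60 to 145 and 0 to 47 for the treatments in total and polysomal RNA, and 62 to 280 and 2 to 260 for the fractions in slow-dried and rehydrated plants. Where it called 0, between 64 and 185 clones had an unadjusted p under 0.05. Of the 4 clones 1 to 3 were then lower and 0 to 1 higher in rehydrated total RNA, 0 to 3 lower in rehydrated polysomal RNA, 0 to 2 lower for the polysomal difference of treatments, 0 to 1 lower and 0 to 1 higher for the fractions in slow-dried plants, and 0 to 3 lower for those after rehydration. The ratios after rehydration ran in total RNA from -1.12 to -0.90 for subunit III, -1.64 to -0.86 for the chlorophyll a/b-binding protein and 0.54 to 1.91 for Toc125. In polysomal RNA they ran from -2.54 to -2.42 for carbonic anhydrase, -2.48 to -2.23 for subunit III, -1.88 to -1.50 for the chlorophyll a/b-binding protein and -0.32 to 0.19 for Toc125, which ran from -0.56 to 0.021 in slow-dried polysomal RNA and from -0.50 to 0.083 for the polysomal difference of treatments. For the fractions in slow-dried plants the range was -0.64 to 0.15 for subunit III and -0.91 to 1.23 for the chlorophyll a/b-binding protein.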
